A study of Homo sapiens with 8 samples.

Results

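Semaphorins, plexins and neuropilins were followed in U373 cells. U373 is a cell line established from a human astrocytoma, and some of its stocks have been found to derive from another glioblastoma line. The members were the genes with a probe set of their own whose symbol names a semaphorin of classes 3 to 7, a plexin of families A to D, or NRP1 or NRP2. They numbered 30 of 18417 genes: 19 semaphorins, 9 plexins and 2 neuropilins. The genes were chosen by symbol, and the measured value used was the mean over all arrays, on which the probe set was selected for NRP2 and SEMA4D, which have a second one. SEMA4C was not analysed here. The groups were cells given 10 nM progesterone with 1 µM RU-486, 1 µM RU-486 alone, 10 nM progesterone alone, or vehicle, for 12 h, and each had 2 arrays. RU-486 (mifepristone), which the sample descriptions spell RU-484, blocks the progesterone and glucocorticoid receptors. Before treatment the cells of all 4 groups were kept for 24 h in medium with 5% serum freed of hormones. The labels call the 2 arrays of a group biological replicates without saying that they came from separate cultures, so p-values reflect only how much these samples vary. With 2 arrays in a group, precision is low throughout.

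Semaphorins are secreted or membrane-bound guidance proteins that share the sema domain, and plexins are their receptors. A bound plexin acts inside the cell as a brake on small GTPases, which loosens adhesion and retracts the cell edge, and neuropilins are co-receptors that most secreted class 3 semaphorins need and that also bind vascular endothelial growth factors. In the nervous system the family steers axons and migrating cells, and in glioma it is studied for its part in invasion and in vessel growth.

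Across the arrays as a whole, the array medians ran from 6.93 to 7.02 on the log2 scale. The 2 progesterone arrays differed more from each other than the pairs of other groups did: 2176 genes differed by over 0.5 log2 units between them, against 183 in the combination pair, 127 in the RU-486 pair and 450 in the vehicle pair. A single principal component, named the within-group axis, carried 66.4% of the variation among arrays of one group. Its scores were 16.7 and 8.11 for the combination, 4.23 and -3.84 for RU-486, 21.8 and -24.7 for progesterone and -3.71 and -18.7 for vehicle (replicates 1 and 2). The scores were computed from values centred on the mean of all arrays, so they hold differences between groups as well. As a covariate the axis can therefore take up part of a treatment difference. Of the markers listed for astrocytes and glioma, 7 of 8 lay above background, AQP4 being the exception, and of those for microglia and leukocytes 0 of 5 did. Markers above background numbered 3 of 5 for neurons, 1 of 4 for oligodendrocytes and 2 of 5 for endothelium. Over all genes the share above background was 72.4%. These are bulk RNA values, in which fewer cells of a kind and less RNA per cell cannot be told apart.

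The signals of most of the family stood clear of the array background. Since different probe sets have no common zero, each gene was set against 341 olfactory receptor genes, a family that most tissues keep silent. Of the 30 members, 26 had a mean over the 8 arrays above 6.22, the level under which 95% of the olfactory receptor genes lay, compared with 72.4% of all genes. These were 16 of 19 semaphorins, 8 of 9 plexins and both neuropilins. The 4 below it were SEMA3D, SEMA3E, SEMA4G and PLXNC1. With the highest olfactory receptor gene (6.996) as the limit, 21 members stood above it.

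**Figure D1:**
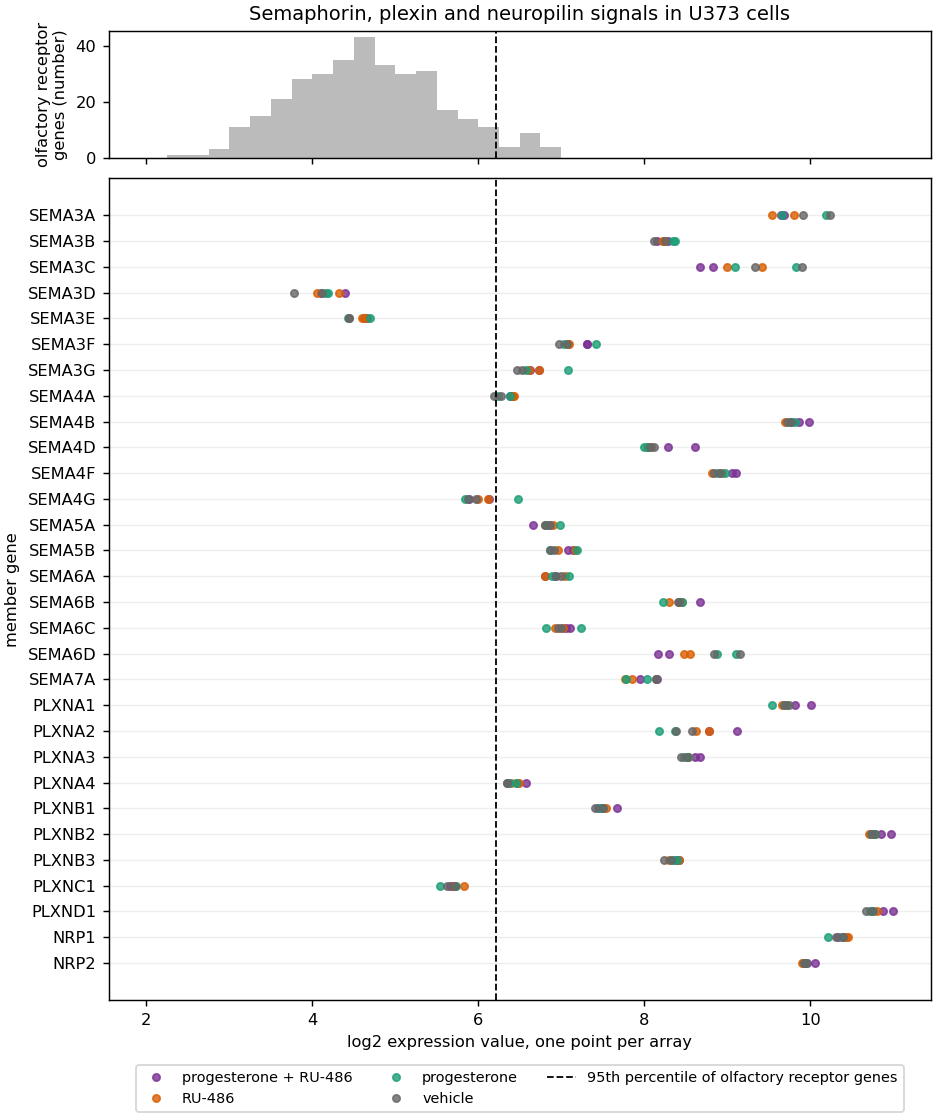
Log2 expression values of the 30 members on each of the 8 arrays (lower panel, 1 point per array, coloured by group), below a histogram of the mean values of 341 olfactory receptor genes (upper panel). The dashed line is their 95th percentile, 6.22, and 26 members have means to its right; values of different genes are not comparable as levels, since each comes from its own probe set.

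Among the receptors, PLXNB2, a plexin with broad roles in cell guidance and mechanics, was measured at 10.97 and 10.85 in combination arrays, 10.74 and 10.72 in RU-486 arrays, 10.74 and 10.78 in progesterone arrays and 10.78 and 10.74 in vehicle arrays. PLXND1, the vascular plexin that SEMA3E binds without a neuropilin, was at 11.001 and 10.87 in the combination, 10.80 and 10.73 with RU-486, 10.74 and 10.72 with progesterone and 10.75 and 10.67 with vehicle. For both genes the 2 combination arrays were the highest of the 8, and the arrays of RU-486 alone and of progesterone alone each overlapped those of vehicle. PLXND1 differed from vehicle by 0.22 ± 0.08 log2 units (SE) in the combination, which did not pass (limma adjusted p = 0.374).

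The neuropilins varied little on the probe sets used. NRP1, the co-receptor of SEMA3A and of VEGFA, was at 10.39 and 10.34 in combination arrays, 10.45 and 10.43 in RU-486 arrays, 10.22 and 10.39 in progesterone arrays and 10.39 and 10.32 in vehicle arrays. NRP2, the co-receptor of SEMA3F, was at 10.06 and 9.96 in the combination, 9.92 and 9.91 with RU-486, 9.94 and 9.94 with progesterone and 9.95 and 9.93 with vehicle. Their whole ranges over the 8 arrays were 0.24 and 0.15 log2 units. For the combination against vehicle the 95% interval of the difference was -0.20 to 0.22 for NRP1 and -0.10 to 0.25 for NRP2. The probe set of NRP2 that was not used, at a mean of 9.01, ran from 8.87 to 9.17. Both vehicle arrays were the highest on it, and the combination differed from vehicle by -0.14.

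PLXNA1, a partner of several class 6 semaphorins and of neuropilins, ranged from 9.54 to 10.01 over the 8 arrays, PLXNA3 from 8.44 to 8.67 and PLXNA4 from 6.34 to 6.58. The range was 7.41 to 7.67 for PLXNB1, the receptor of SEMA4D, and 8.24 to 8.42 for PLXNB3, a receptor of SEMA5A. PLXNC1, the plexin that binds SEMA7A, lay between 5.54 and 5.83, under the background limit on every array. The signal of PLXNC1 was thus that of a dim probe set, while SEMA7A itself was above background on all 8 arrays.

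Of the remaining ligands, SEMA5A ranged from 6.66 to 6.99, SEMA5B from 6.87 to 7.19, SEMA6A from 6.80 to 7.10, SEMA6B from 8.23 to 8.67 and SEMA6C from 6.81 to 7.24. SEMA3D, at 3.79 to 4.39, and SEMA3E, at 4.43 to 4.69, lay among the olfactory receptor genes, 29.3% and 46.6% of which were below them. SEMA4G, at 5.84 to 6.48, lay just under the background limit with a mean of 6.04, and SEMA4A just over it with a mean of 6.34.

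No member passed the test in any comparison. This held for the moderated F test over the 4 groups and for 8 contrasts in limma with p-values adjusted over all 18417 genes and a threshold of 0.05. The share of all genes called was 0% in the F test and in 7 contrasts, and 0.0326% (6 genes, none of them members) when the 4 arrays with RU-486 were set against the 4 without it. At an unadjusted p under 0.05 the F test held 3 of 30 members, SEMA6D, PLXNA2 and SEMA4D, where 7.63% of all genes did. The smallest adjusted p of the F test among members was 0.633, for SEMA6D.

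SEMA6D, a transmembrane semaphorin that signals through plexin A receptors in heart and nervous system, had lower values on the arrays with RU-486. Its log2 values were 8.17 and 8.30 in combination arrays, 8.55 and 8.48 in RU-486 arrays, 8.88 and 9.11 in progesterone arrays and 8.84 and 9.16 in vehicle arrays. All 4 arrays with RU-486 lay below all 4 without it, and the 2 combination arrays were the lowest of all. Of all genes, 1.09% were lower without overlap in this comparison, and SEMA6D was the 1 member among them.

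With RU-486 present, SEMA6D was at a mean of 8.37, against 8.997 without it, a difference of -0.62 ± 0.09 (SE), or 1.54-fold lower, with a 95% interval of -0.85 to -0.40. The limma adjusted p was 0.166 and did not pass, with an unadjusted p of 0.00027. The combination stood 0.76 ± 0.13 log2 units below vehicle (difference -0.76, limma adjusted p = 0.374) and RU-486 alone differed from vehicle by -0.48 ± 0.13 (limma adjusted p = 1.00), or by -0.32 without vehicle replicate 2. Progesterone alone had a mean of 8.997 and vehicle 8.998, with a 95% interval of the difference of -0.31 to 0.31.

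Adding progesterone to RU-486 gave a SEMA6D difference of -0.28 ± 0.13 (combination against RU-486, limma adjusted p = 0.769). The interaction term, which asks whether RU-486 acted differently with progesterone present, was -0.28 ± 0.19 (limma adjusted p = 0.828). Without progesterone replicate 1 the RU-486 difference of SEMA6D was -0.68 and passed (limma adjusted p = 0.0403), in a fit that called 998 genes in all. Over the 16 alternatives this adjusted p ranged from 0.0403 to 0.822 and the difference from -0.71 to -0.54. With the within-group axis as a covariate it was -0.54 (limma adjusted p = 0.0921).

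PLXNA2, a plexin that binds SEMA6A and, with neuropilins, class 3 semaphorins, had higher values on the arrays with RU-486. It was at 9.12 and 8.78 in combination arrays, 8.62 and 8.79 in RU-486 arrays, 8.38 and 8.18 in progesterone arrays and 8.58 and 8.39 in vehicle arrays. The 4 arrays with the drug lay above the 4 without it, by a narrow gap between RU-486 replicate 1 and vehicle replicate 1. Higher without overlap in this comparison were 4.51% of all genes and 2 of 30 members, PLXNA2 and PLXNA3.

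The mean of PLXNA2 was 8.83 with RU-486 and 8.38 without it, a difference of 0.44 ± 0.10 (SE), or 1.36-fold, with a 95% interval of 0.21 to 0.68. The limma adjusted p of 0.336 did not pass. Against progesterone alone the combination was higher by 0.67 ± 0.14 (limma adjusted p = 0.255) and against vehicle by 0.46 ± 0.14 (limma adjusted p = 0.374). Without combination replicate 1 the difference from vehicle was 0.30 and the interaction 0.29. RU-486 alone and progesterone alone differed from vehicle by 0.22 ± 0.14 and -0.21 ± 0.14, and the interaction was 0.45 ± 0.20, none of which passed (limma adjusted p = 1.00, 0.769 and 0.828). Without progesterone replicate 1 the RU-486 difference was 0.49 and passed (limma adjusted p = 0.0488). Over the 16 alternatives its adjusted p ranged from 0.0488 to 0.933.

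**Figure D2:**
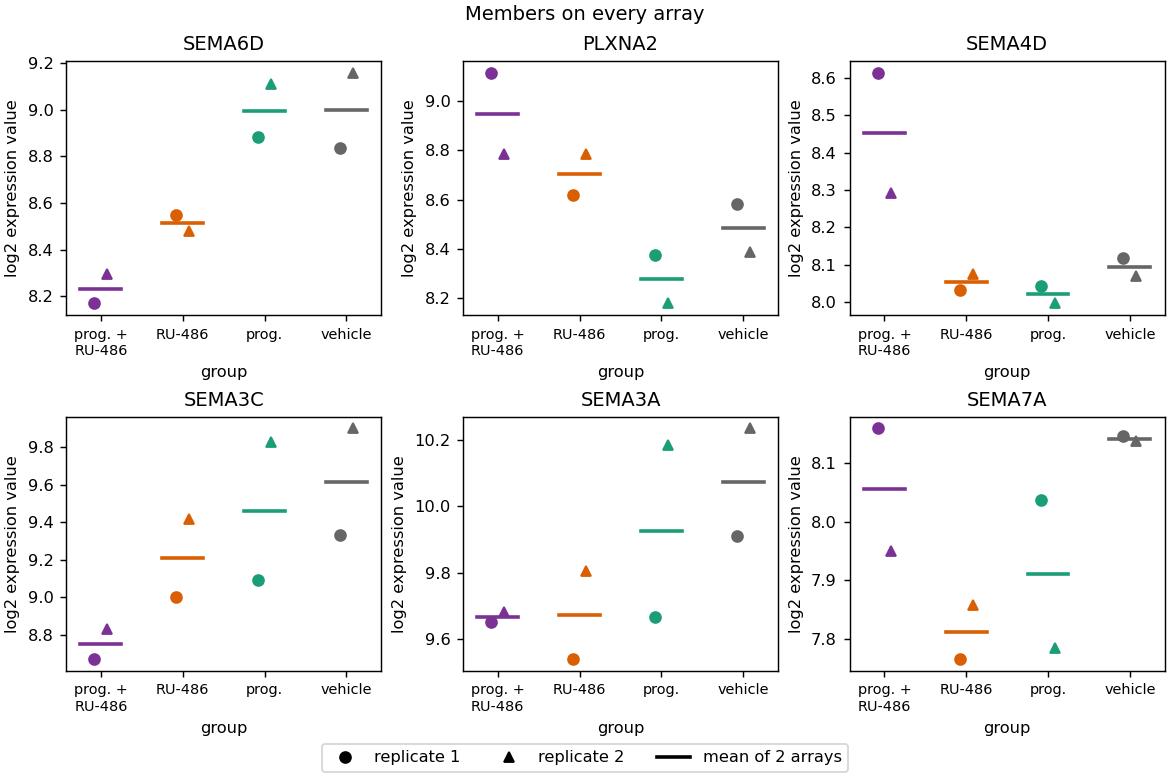
Log2 expression value (vertical axis, a separate scale for each gene that does not start at 0) of 6 members on every array, by group; circles are replicate 1, triangles replicate 2 and bars the mean of 2 arrays. SEMA6D is lowest in the combination (mean 8.23) and PLXNA2 highest there (8.95), while in SEMA3C and SEMA3A replicate 2 lies above replicate 1 in all 4 groups.

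Promoter sequences of SEMA6D and PLXNA2, the members that lay lowest in p for the RU-486 comparison, are shown with the promoter motifs found in them. They are 300-base windows from RefSeq (GRCh38.p14), 250 bases before to 50 after an annotated start, read 5′ to 3′ in the direction of the gene. Capitals mark the GC box (GGGCGG or its reverse complement CCGCCC) and the E-box CACGTG, and the array does not tell which SEMA6D start the RNA came from.
SEMA6D start at chr15:47183839-47184138 (+ strand): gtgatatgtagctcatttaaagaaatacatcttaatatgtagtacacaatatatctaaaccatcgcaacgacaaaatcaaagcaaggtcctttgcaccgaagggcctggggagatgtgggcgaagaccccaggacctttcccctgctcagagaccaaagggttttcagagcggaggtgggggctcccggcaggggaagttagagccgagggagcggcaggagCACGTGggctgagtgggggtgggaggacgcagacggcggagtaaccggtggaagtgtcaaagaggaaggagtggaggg
SEMA6D start at chr15:47717255-47717554 (+ strand): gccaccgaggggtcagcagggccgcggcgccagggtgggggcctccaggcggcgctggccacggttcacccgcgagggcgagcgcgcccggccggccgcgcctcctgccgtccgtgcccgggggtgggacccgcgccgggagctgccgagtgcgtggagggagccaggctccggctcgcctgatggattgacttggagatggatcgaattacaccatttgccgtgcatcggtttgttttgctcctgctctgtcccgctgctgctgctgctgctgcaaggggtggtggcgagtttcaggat
SEMA6D start at chr15:47718239-47718538 (+ strand): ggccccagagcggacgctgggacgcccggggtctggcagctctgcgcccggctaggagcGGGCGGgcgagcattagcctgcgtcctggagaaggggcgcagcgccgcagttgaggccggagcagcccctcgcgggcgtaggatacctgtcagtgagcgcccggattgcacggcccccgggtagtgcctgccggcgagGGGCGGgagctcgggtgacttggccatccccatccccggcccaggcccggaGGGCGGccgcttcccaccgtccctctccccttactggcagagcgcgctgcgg
PLXNA2 start at chr1:208244335-208244634 (- strand): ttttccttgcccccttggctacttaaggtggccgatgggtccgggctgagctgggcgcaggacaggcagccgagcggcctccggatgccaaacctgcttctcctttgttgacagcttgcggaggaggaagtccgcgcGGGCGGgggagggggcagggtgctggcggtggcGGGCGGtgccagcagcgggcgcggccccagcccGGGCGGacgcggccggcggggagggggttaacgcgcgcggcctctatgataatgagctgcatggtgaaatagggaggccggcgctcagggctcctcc

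The SEMA6D windows differ in composition. The first has 13 CpG pairs, a GC content of 54.7%, 1 E-box and 0 GC boxes, the second 31 CpG pairs with neither motif, and the third 33 CpG pairs with 3 GC boxes. PLXNA2 has 1 listed start, with 29 CpG pairs and 3 GC boxes. Of 47 listed windows of 26 members, 63.8% held a GC box and 6.38% the E-box, against 45% and 7.26% of all 35116 windows. The half-site AGAACA of the elements that progesterone and glucocorticoid receptors bind, searched on both strands (TGTTCT), was in 0 of the 47 windows and in 14.8% of all windows. The full palindrome of that element, which contains the half-site, was in 0 of the 47 and in 1 of all. Median GC content was 64.3% in the members' windows and 58.7% in all windows. These are letter matches within 300 bases and do not show binding.

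Secreted class 3 semaphorins included the member with both the widest range over arrays and the largest difference between replicates, SEMA3C. SEMA3C, which signals through neuropilins with plexins and is studied in glioma for its part in tumour cell survival, was at 8.67 and 8.83 in combination arrays, 9.001 and 9.42 in RU-486 arrays, 9.09 and 9.83 in progesterone arrays and 9.33 and 9.90 in vehicle arrays. The combination arrays lay below all others, and the other 3 groups overlapped. Against vehicle the combination differed by -0.87 ± 0.28 (SE), or 1.82-fold lower, with a 95% interval of -1.53 to -0.20 (limma adjusted p = 0.374). With and without RU-486 the arrays overlapped, at a difference of -0.56 ± 0.20 (limma adjusted p = 0.434).

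SEMA3A, the classical repellent of axons, which acts through NRP1 and plexin A, had values of 9.65 and 9.68 in combination arrays, 9.54 and 9.81 in RU-486 arrays, 9.67 and 10.19 in progesterone arrays and 9.91 and 10.24 in vehicle arrays. Both groups with RU-486 lay below both vehicle arrays, and progesterone spanned the 2 levels. The difference was -0.41 ± 0.19 for the combination against vehicle (limma adjusted p = 0.390) and -0.40 ± 0.19 for RU-486 against vehicle (limma adjusted p = 1.00). With RU-486 against without, it was -0.33 ± 0.13 (limma adjusted p = 0.443).

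Replicates of these 2 genes stood apart in the same order in each group. Replicate 1 minus replicate 2 was -0.16, -0.42, -0.74 and -0.57 for SEMA3C in the combination, RU-486, progesterone and vehicle pairs, and -0.03, -0.27, -0.52 and -0.32 for SEMA3A. SEMA5A was the other member lower in replicate 1 of all 4 groups. On the within-group axis replicate 1 scored above replicate 2 in all 4 groups too, and with the axis as a covariate the RU-486 difference of SEMA3C was -0.32 (limma adjusted p = 0.201). Between the 2 progesterone arrays 4 members differed by over 0.5 log2 units (SEMA3A, SEMA3C, SEMA3G and SEMA4G), between the vehicle arrays 1 did (SEMA3C), and between the arrays of the combination and of RU-486 0 did. Of all genes, 11.8% did so in the progesterone pair, 2.44% in the vehicle pair, 0.994% in the combination pair and 0.69% in the RU-486 pair.

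**Figure D3:**
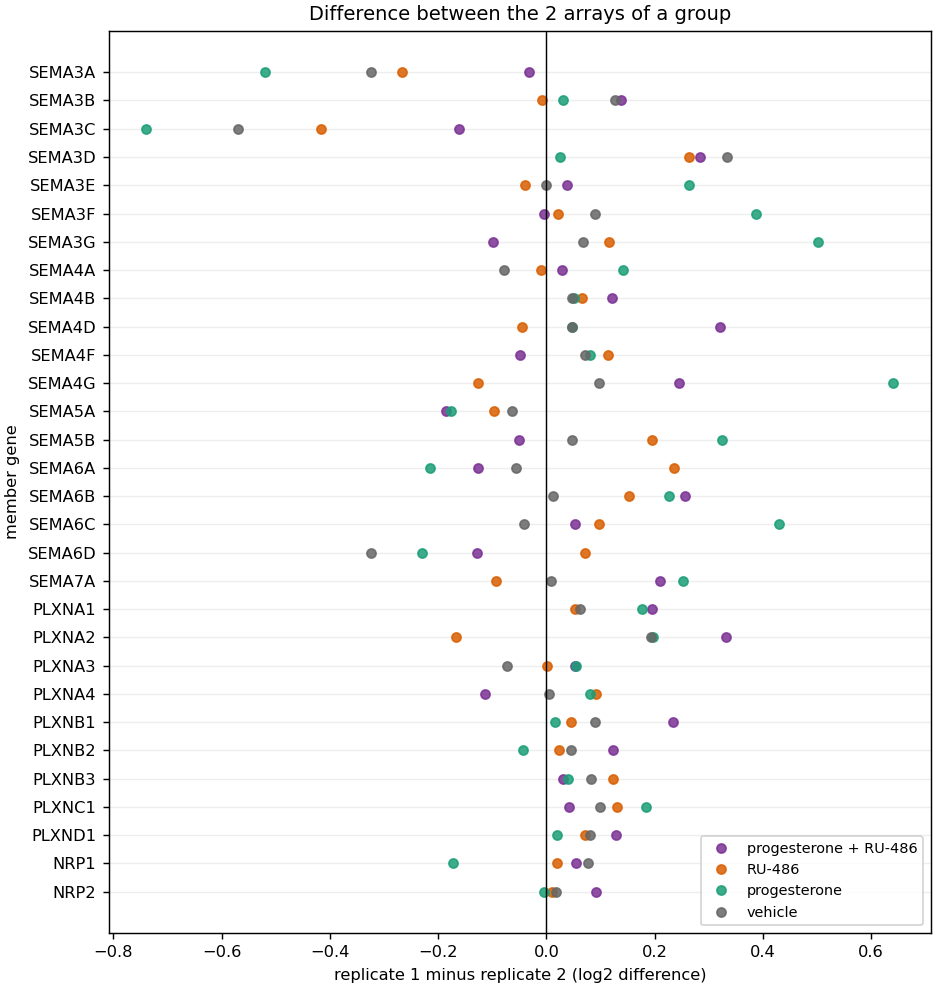
Replicate 1 minus replicate 2 in log2 units (horizontal axis) for the 30 members, with 1 point per group. SEMA3C reaches -0.74 and SEMA4G 0.64 in the progesterone pair, and SEMA3A, SEMA3C and SEMA5A are below 0 in all 4 groups.

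After progesterone alone 5 of 7 class 3 members had a higher mean than vehicle, among them the dim SEMA3D and SEMA3E, against 51.2% of all genes. None of them was called in limma, and 0 members had an unadjusted p under 0.05, against 6.13% of all genes. SEMA3G, a ligand of NRP2, was at 6.63 and 6.73 in combination arrays, 6.73 and 6.62 in RU-486 arrays, 7.08 and 6.57 in progesterone arrays and 6.53 and 6.46 in vehicle arrays. Progesterone replicate 1 was the highest of the 8, and replicate 2 lay only just above vehicle. The difference of progesterone from vehicle was 0.33 ± 0.16 (SE, limma adjusted p = 0.741). It was 0.08 without progesterone replicate 1, and 0.58 without progesterone replicate 2, where it passed (limma adjusted p = 0.0426) among 1228 genes called. Over the 16 alternatives its adjusted p ranged from 0.0426 to 1.00.

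SEMA3F, a ligand of NRP2 that repels axons and restrains vessel growth, was at 7.31 and 7.31 in combination arrays, 7.10 and 7.08 in RU-486 arrays, 7.42 and 7.03 in progesterone arrays and 7.06 and 6.97 in vehicle arrays. The 4 arrays with progesterone overlapped the 4 without it, since progesterone replicate 2 was at 7.03, and the difference was 0.21 ± 0.09 (limma adjusted p = 0.722). It was 0.12 without progesterone replicate 1 and 0.13 with the within-group axis as a covariate. SEMA3B, a ligand of neuropilins described as a tumour suppressor in lung cancer, was at 8.29 and 8.15 in the combination, 8.22 and 8.23 with RU-486, 8.37 and 8.34 with progesterone and 8.24 and 8.12 with vehicle. Its progesterone arrays were the highest of the 8. SEMA3B differed from vehicle by 0.18 ± 0.09 after progesterone (limma adjusted p = 0.741), and without vehicle replicate 2 by 0.11.

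Class 4 semaphorins, which are membrane proteins, were highest in the combination for 3 of 5 members. Over all genes 67.5% had a higher mean in the combination than in vehicle, and 42.7% were higher without overlap. The share of all genes highest in the combination was not counted, so no trait of the class is read from this. SEMA4D, which can be shed from the cell surface and binds PLXNB1, was at 8.61 and 8.29 in combination arrays, 8.03 and 8.08 in RU-486 arrays, 8.04 and 7.997 in progesterone arrays and 8.12 and 8.07 in vehicle arrays. Both combination arrays lay above the other 6, which fell within a narrow band. The combination exceeded RU-486 by 0.40 ± 0.11 (limma adjusted p = 0.769), progesterone by 0.43 ± 0.11 (limma adjusted p = 0.268) and vehicle by 0.36 ± 0.11 (limma adjusted p = 0.374).

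For SEMA4D the interaction of the 2 steroids was 0.47 ± 0.16 (SE), with a 95% interval of 0.10 to 0.85, and did not pass (limma adjusted p = 0.828). Without combination replicate 1 the differences were 0.24, 0.27 and 0.20 in the same order and the interaction was 0.31. The second SEMA4D probe set, at a mean of 6.25, was near background and did not show the pattern: the combination differed from vehicle by 0.11 on it and the interaction was -0.24. With the mean of both probe sets the interaction was 0.12, and the differences from RU-486, progesterone and vehicle were 0.17, 0.18 and 0.23.

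SEMA4B was at 9.99 and 9.87 in combination arrays, 9.76 and 9.70 in RU-486 arrays, 9.82 and 9.77 in progesterone arrays and 9.77 and 9.72 in vehicle arrays. SEMA4F was at 9.05 and 9.10 in the combination, 8.93 and 8.82 with RU-486, 8.98 and 8.90 with progesterone and 8.91 and 8.84 with vehicle. In both genes the combination arrays were the highest, and each was higher than with RU-486 alone by 0.20 ± 0.08 (limma adjusted p = 0.769 each). SEMA4A, a ligand on immune cells and in the retina, was at 6.41 and 6.38 in combination arrays, 6.42 and 6.43 in RU-486 arrays, 6.38 and 6.24 in progesterone arrays and 6.19 and 6.27 in vehicle arrays. RU-486 alone and vehicle differed by 0.20 ± 0.08 in this dim gene (limma adjusted p = 1.00).

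SEMA7A, a semaphorin anchored to the membrane by a lipid that binds PLXNC1 and integrins, had another order of groups. It was at 8.16 and 7.95 in combination arrays, 7.77 and 7.86 in RU-486 arrays, 8.04 and 7.78 in progesterone arrays and 8.15 and 8.14 in vehicle arrays. Each steroid alone lay below vehicle without overlap, whereas the combination spanned the vehicle values. The difference from vehicle was -0.09 ± 0.11 (SE) for the combination, -0.33 ± 0.11 for RU-486 and -0.23 ± 0.11 for progesterone (limma adjusted p = 0.695, 1.00 and 0.741). The interaction was 0.47 ± 0.16, with a 95% interval of 0.09 to 0.86 (limma adjusted p = 0.828). The progesterone difference was -0.10 without progesterone replicate 2 and -0.36 without replicate 1.

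In the combination against vehicle, 24 of 30 members had a higher mean, the median log2 difference was 0.14, and 17 were higher and 4 lower without overlap of arrays. Over all genes the median was 0.07, 67.5% had a higher mean, 42.7% were higher without overlap and 18.8% lower. At an unadjusted p under 0.05 lay 6 members, 4 higher and 2 lower, and 13.2% of all genes (6.92% higher and 6.29% lower), with 0 members called in limma. Those higher were PLXNA2, SEMA4D, PLXND1 and SEMA4F, and those lower were SEMA6D and SEMA3C.

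All 9 plexins had a higher mean in the combination than in vehicle, with differences of 0.01 to 0.46 and a median of 0.16, and 7 of 9 were higher without overlap, against 42.7% of all genes. Of the 19 semaphorins 13 had a higher mean, with a median of 0.13 and a range from -0.87 to 0.36, and 9 were higher and 4 lower without overlap, against 42.7% and 18.8% of all genes. The 9 plexins and 13 semaphorins stand beside the 67.5% of all genes with a higher mean, and nothing particular to the family is read from them.

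**Figure D4:**
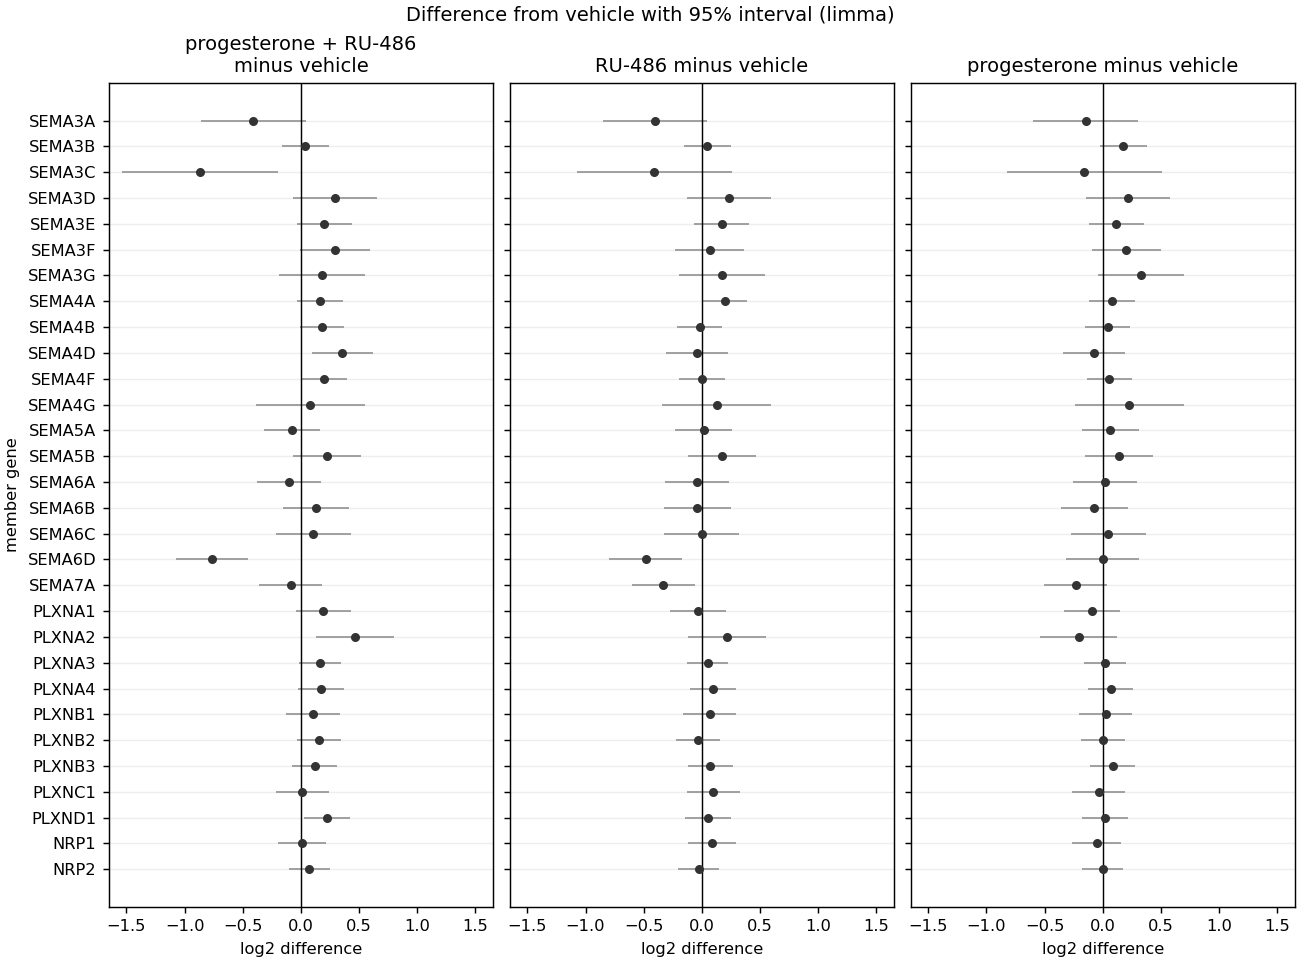
Log2 difference from vehicle (horizontal axis) with its 95% interval from limma, unadjusted for the number of genes, for the 30 members after both steroids (left), RU-486 (middle) and progesterone (right). The 9 plexins lie above 0 in the left panel, and SEMA6D, at -0.76 and -0.48, lies below 0 in the left and middle panels; the 3 panels share the vehicle arrays.

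RU-486 alone gave smaller differences from vehicle. They ran from -0.48 to 0.24 over the members, with a median of 0.05, compared with 0.01 over all genes. At an unadjusted p under 0.05 lay 3 members (SEMA6D and SEMA7A lower, SEMA4A higher) and 3.1% of all genes (2.15% higher and 0.95% lower). Without overlap 11 members were higher and 4 lower, against 24% and 15.7% of all genes. After progesterone alone, 0 members and 6.13% of all genes (3.68% higher and 2.45% lower) had an unadjusted p under 0.05. The members' median difference was 0.02, where that of all genes was 0.004, and 5 members were higher and 3 lower without overlap, against 16.3% and 15.8% of all genes.

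The combination against progesterone sets RU-486 against its absence on other arrays, so the 2 RU-486 comparisons share no samples. In that comparison 6 members had an unadjusted p under 0.05, 4 of them higher and 2 lower, and 14.6% of all genes (10.1% higher and 4.5% lower). Without overlap 10 members were higher and 3 lower, against 28.1% and 12.6% of all genes. SEMA6D, at -0.76 ± 0.13 (limma adjusted p = 0.226), PLXNA2 and SEMA4D had the smallest p. Lower without overlap in both comparisons was 1 member, SEMA6D, and higher in both were 3, PLXNA2, PLXNA3 and PLXNA4, against 3.38% and 7.06% of all genes. PLXNA3 and PLXNA4 differed by 0.05 and 0.10 with RU-486 against vehicle (limma unadjusted p = 0.535 and 0.279). With the combination against progesterone they differed by 0.14 and 0.11 (limma unadjusted p = 0.102 and 0.241). PLXNA4, at a mean of 6.43, lay just over the background limit of 6.22. Of all members 14 had a higher mean in both and 4 a lower one, against 34% and 22.1% of all genes. On average over both comparisons 6 members had an unadjusted p under 0.05, against 11% of all genes (6.53% higher and 4.49% lower), PLXNA2, SEMA4D and SEMA4A higher and SEMA6D, SEMA3C and SEMA3A lower.

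**Figure D5:**
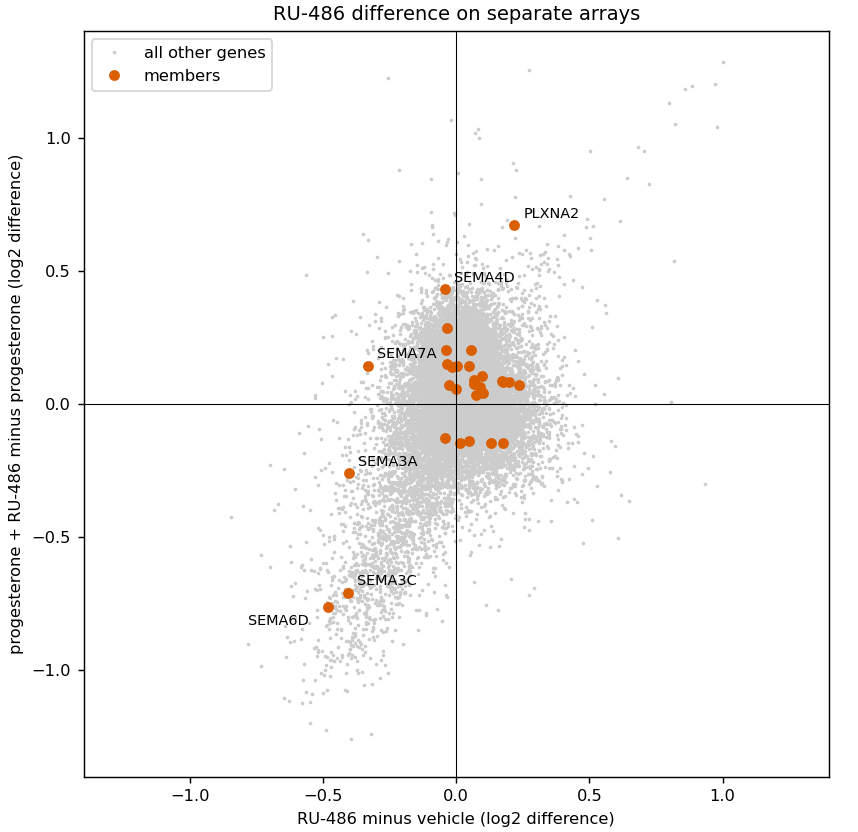
RU-486 minus vehicle (horizontal axis) against the combination minus progesterone (vertical axis), both in log2 units, for all other genes (grey) and the 30 members (orange), from 4 separate groups of 2 arrays. SEMA6D, at -0.48 and -0.76, and PLXNA2, at 0.22 and 0.67, lie away from the origin in both, while SEMA4D differs on the vertical axis, at 0.43, and is at -0.04 on the horizontal one.

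Progesterone likewise had 2 comparisons on separate arrays, and in these 0 members were higher and 0 lower without overlap in both, against 4.64% and 1.89% of all genes. On average over the 4 arrays with progesterone and the 4 without, SEMA3F was the 1 member with an unadjusted p under 0.05, where 5.03% of all genes had one (3.2% higher and 1.83% lower). Without overlap 0 members were higher and 0 lower, against 2.02% and 0.836% of all genes. Where progesterone was added to RU-486, 3 members had an unadjusted p under 0.05, SEMA4D, SEMA4B and SEMA4F, all higher. Of all genes 4.75% had one there (3.18% higher and 1.56% lower). Without overlap 11 members were higher and 5 lower there, against 33.3% and 17.1% of all genes. For the interaction 2 members had an unadjusted p under 0.05, SEMA4D and SEMA7A, both above 0. Of all genes 5.28% had one (3.68% above 0 and 1.6% below).

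Known partners of the family were counted as whole lists. Among 37 measured intracellular effectors of plexins and semaphorins 0 were called in limma for RU-486 against without, 5 had an unadjusted p under 0.05, all higher, against 11% of all genes (6.53% higher), and the median difference was 0.03, as over all genes. FYN, a kinase that acts downstream of SEMA3A, differed by 0.43 ± 0.06 (SE, limma adjusted p = 0.125), and CRMP1, a collapsin response mediator that transmits SEMA3A signals to the cytoskeleton, by 0.26 ± 0.05 (limma adjusted p = 0.318). The cytoskeletal effectors CFL1 and RHOA, at means of 13.2 and 12.8, lay far above background. Of 17 co-receptors and other partners 1 had an unadjusted p under 0.05, against 11% of all genes, and 0 were called.

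Among 5 growth factors of the list of neuropilin ligands (VEGFA, VEGFB, VEGFC, PGF and HGF), 2 had an unadjusted p under 0.05 for RU-486, against 11% of all genes, with a median of 0.10 and 0 called. These were VEGFA, a ligand of NRP1, at 0.45 ± 0.07 (limma adjusted p = 0.170), and HGF, the hepatocyte growth factor, at 0.22 ± 0.06 (limma adjusted p = 0.421). HGF had a mean of 4.32 and lay above background on 0 of the 8 arrays. Of 8 proteases that cleave or shed semaphorins 1 had such a p (11% of all genes), ADAM10, a sheddase, at -0.45 ± 0.16 (limma adjusted p = 0.430). For the combination against vehicle ADAM10 was at -0.75 ± 0.22 (limma adjusted p = 0.374). Like SEMA3C and SEMA3A, ADAM10 was lower in replicate 1 of each group. Replicate 1 minus replicate 2 was -0.47, -0.35, -0.47 and -0.26 in the combination, RU-486, progesterone and vehicle pairs.

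Other guidance families were counted in the same way. For RU-486 against without, 5 of 21 ephrins and Eph receptors had an unadjusted p under 0.05 (3 higher and 2 lower), with a median of 0.03, and 4 of 24 netrins, slits and their receptors did (3 higher and 1 lower), with a median of 0.09. The members' count was 6 of 30 and their median 0.07, and over all genes the share was 11% (6.53% higher and 4.49% lower) and the median 0.03. For the combination against vehicle the medians were 0.14 for the members, 0.13 for ephrins and Eph receptors and 0.14 for netrins, slits and their receptors. No gene of either list passed (limma), and EFNB2, an ephrin of vessels and neural stem cells, at 0.37 ± 0.06 for RU-486 (limma adjusted p = 0.172), had the smallest p among them.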

How the data were processed

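Total RNA was profiled on 8 whole-transcript Affymetrix arrays. For each of 33297 probe sets the authors deposited a log2 value on every array. The submitters' processing notes name RMA and the packages oligo and limma but give no version or setting. RMA, as a method, equalises the distributions of arrays and compresses differences of dim genes. The platform annotation gives a single symbol for 19460 probe sets and more than 1 for 1754, and 12083 are unnamed here. Genes with several probe sets kept the one with the highest mean, which left 18417 genes. The members and gene lists were chosen with earlier results of these data known.

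All 8 arrays entered 1 linear model of group means, fitted by lmFit and eBayes of limma 3.58.1 (R 4.3.3), with 4 residual degrees of freedom, 1 spread for all groups and no replicate term. P-values were adjusted by Benjamini-Hochberg over all genes. The pipeline was tested on simulated data with independent noise in each gene and the same spread in all groups. That test lacked the within-group axis and the wider progesterone pair, so it does not show how calls behave with them. Values on every array are given for the 3 members with the smallest p in a contrast or in the F test and the 5 with the highest mean. Genes of the lists that are named with a difference or level come from the 2 per list lowest in F test p and the 2 highest in level, and not all of these are described. Same-numbered replicates deviated together in all 6 pairs of groups (correlation across genes 0.197 to 0.511). The arrays may thus be paired by replicate number, but the labels do not say so. The main fit leaves such a pairing out. Alternatives were the replicate block, scalings, filters, array weights, the within-group axis and leaving out arrays. Promoter sequences come from RefSeq. No genome was used.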

Additional observations from a re-analysis of the deposited data

Results flagged for a closer look

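In 3 members the arrays of 1 comparison all lay higher and those of the matching comparison all lay lower, so that a steroid went with opposite differences depending on the other one. SEMA4D with progesterone was higher in the presence of RU-486 and lower without it (interaction 0.47, limma adjusted p = 0.828). SEMA7A showed the same for progesterone (interaction 0.47, limma adjusted p = 0.828). NRP2 did so for RU-486, higher with progesterone and lower without it, with an interaction of 0.0983 (limma adjusted p = 0.850). On the second NRP2 probe set, at a mean of 9.01, the interaction was 0.29, but the pattern was not free of overlap. Its combination arrays, at 9.09 and 8.93, overlapped those of progesterone, at 8.87 and 8.99. The combination differed from vehicle by -0.14 on it and by 0.07 on the probe set used. Among all genes such opposite differences occurred in 1519 of 18417 for progesterone and 967 of 18417 for RU-486, beside 2 and 1 of 30 members. None of the 3 interactions passed, and nothing particular to the family is read from these counts. Groups of 2 arrays are too small for a test of single outlying arrays.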

How the results depend on the processing

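The count of called members was 0 under the alternatives, except where a progesterone array was left out. Leaving out 1 array at a time gave 0 to 2 members for progesterone against vehicle (SEMA3F and SEMA3G without progesterone replicate 2, among 1228 genes), 0 to 2 for the combination against progesterone and 0 to 2 for RU-486 against without (PLXNA2 and SEMA6D in both, without progesterone replicate 1, among 1090 and 998 genes). The lone progesterone array is then assumed to vary like the other groups. With the replicate number as a block the count was 0 members in each comparison and no call changed, the smallest adjusted p being 0.068 for SEMA6D, combination against vehicle. Leaving out both progesterone arrays, chosen after seeing the data, gave 0 members in 3 comparisons. Of the differences of named members, 388 values kept direction and call, 5 passed the threshold (those without a progesterone array named above) and 0 reversed. Members above background numbered 26 in the main setting and 21 with the highest olfactory receptor gene as the limit. Dim members (SEMA3D, SEMA3E, SEMA4G and PLXNC1) are limited by signal near background.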
